A study of Mus musculus and Acomys cahirinus with 25 samples.

Results

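Levels of 10 genes of the melanocyte lineage were followed through the wounds of 2 rodent species by their gene symbols. They were *Dct*, *Tyr*, *Tyrp1*, *Pmel* and *Mlana* of the melanosome, the transcription factor gene *Mitf*, the receptor genes *Kit* and *Ednrb* and the ligand genes *Kitl* and *Edn3*. All 10 were found among the 24500 gene rows of each of the 25 libraries. The rule names the genes and uses no measured value, although the list was drawn up with earlier results of these data known.

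RNA-seq counts were available for the separated epidermis and dermis of full-thickness dorsal wounds. The lab mouse (4-week-old) was sampled on post-wounding day (PWD) 14, when the wound center was punched out and the remaining ring was taken as the wound margin. Its 13 libraries were 2 of wild-type (WT) center epidermis, 2 of WT margin epidermis, 5 of WT center dermis, 2 of WT margin dermis and 2 of center dermis from the K14-Cre-Twist1 knockout (KO). The main strain of the study was C57BL/6J, whereas KO mice came from a cross of *Twist1* conditional null and KRT14-cre mice with Twist1+/+ mice as their controls, and the labels do not say which WT libraries came from which mice, so that statements over all 5 WT center dermis libraries may pool both. The 12 libraries of the African spiny mouse (*Acomys cahirinus*, WT, 2-month-old) came from unwounded skin on PWD0 and from wounds without division into regions on the later days, in epidermis with 1 library on PWD0, 2 on PWD14, 2 on PWD21 and 1 on PWD28, and in dermis with 2, 1, 2 and 1 on the same days. The wound days of the spiny mouse are those of the labels, and the library list of the study gives each of them slightly differently. In the K14-Cre-Twist1 mouse, a keratin 14 promoter drives Cre in keratinocytes and removes *Twist1* there, so the dermis libraries do not check the deletion, and *Twist1* was read at 73.4 and 44.0 CPM in the 2 KO dermis libraries and at 36.3 to 159 CPM in the 5 WT center dermis libraries. Both sexes were used, and the labels tie no library to an animal. The p-values therefore measure the spread between libraries, which by the labels alone may be technical in part. The paper describes its bulk RNA-seq replicates as independent. For the lab mouse epidermis and genotype comparisons it calls them biologically independent experiments.

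Melanocytes arise from the neural crest and make melanin in melanosomes. Tyrosinase (*Tyr*), tyrosinase-related protein 1 (*Tyrp1*) and dopachrome tautomerase (*Dct*) are enzymes of melanin synthesis, *Pmel* encodes the fibrils on which melanin is laid down and *Mlana* a melanosome membrane protein. MITF switches on these genes, while KIT with its ligand (*Kitl*) and the endothelin receptor EDNRB with endothelin 3 (*Edn3*) guide survival and migration of melanoblasts. In hair-bearing skin most melanocytes sit in the bulbs of growing follicles, whereas *Mitf* and *Kit* are also mast cell genes and *Ednrb* is also expressed by fibroblasts and endothelium.

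Levels are given as CPM, the count of a gene scaled by the library's total count on genes. Libraries held 35282463 to 86532134 counts on genes in lab mouse epidermis, 19413261 to 28615931 in lab mouse dermis and 5669760 to 34751956 in the spiny mouse, and 3 counts, the smallest amount taken as detectable, were 0.0347 to 0.529 CPM, a limit that covers counting error only. Lab mouse libraries held few genes with 1 to 10 counts, 2.41% to 10.03% of detected genes against 14.3% to 24.6% in the spiny mouse. A lab mouse gene listed at 0 may therefore lie below what these files retained. Lab mouse folds given as at least a value take such a 0 as 3 counts or fewer, which these files do not establish. Spiny mouse reads were aligned to the lab mouse genome, and levels were not compared between the species. Lab mouse epidermis was sequenced paired-end and dermis single-end, so layer and read type cannot be told apart there. Among low counts of 2 or more, 58.0% and 61.6% were even in center epidermis and 80.0% and 75.3% in margin epidermis. The share was 49.9% to 55.3% in lab mouse dermis and 51.5% to 54.4% in the spiny mouse. The cause was not tested, so 3 counts may be a weaker limit in lab mouse epidermis, and unequally so by region. One library stood apart, KO dermis replicate 2, with 35189 summed CPM of 9 keratinocyte markers against 9.82 to 4553 in the other 8 lab mouse dermis libraries, and KO fold changes are given with and without it.

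On the lab mouse genome (GRCm38.p6, RefSeq) all 10 members are protein-coding genes. *Dct* lies on chr14:118012790-118052246 (minus strand), *Tyr* on chr7:87424771-87493512 (minus), *Tyrp1* on chr4:80834123-80851736 (plus), *Pmel* on chr10:128695888-128720238 (plus) and *Mlana* on chr19:29697541-29708447 (plus). *Mitf* lies on chr6:97807002-98021360 (plus), *Kit* on chr5:75574987-75656722 (plus), *Kitl* on chr10:100015615-100100416 (plus), *Edn3* on chr2:174760619-174784042 (plus) and *Ednrb* on chr14:103814615-103844508 (minus). Counts are of reads on exons.

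The heptamer TCATGTG, the core of the M-box to which MITF binds, was searched on both strands in the 250 bases upstream of each RefSeq gene start of the same build. RefSeq windows were matched for 8 of the 10 members, not for *Pmel* and *Mlana*, and 3 of these 8 (*Dct*, *Tyr* and *Tyrp1*) held the heptamer, while 3.25% of all 32851 windows did. The windows are shown because the 3 genes with the heptamer are the enzymes whose levels are compared below. Capitals mark the heptamer or its reverse complement CACATGA, and each sequence reads 5′ to 3′ on the gene's own strand. The first 2 are the 250 bases before the starts of *Dct* (chr14:118052247-118052496, minus strand) and *Tyr* (chr7:87493513-87493762, minus strand), and the third is 30 bases around the match of *Tyrp1* (chr4:80834154-80834183, plus strand).
Dct: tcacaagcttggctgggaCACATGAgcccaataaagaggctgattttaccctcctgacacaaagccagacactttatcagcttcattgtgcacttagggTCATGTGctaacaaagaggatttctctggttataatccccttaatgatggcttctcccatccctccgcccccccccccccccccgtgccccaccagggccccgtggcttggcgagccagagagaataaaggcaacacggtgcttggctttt
Tyr: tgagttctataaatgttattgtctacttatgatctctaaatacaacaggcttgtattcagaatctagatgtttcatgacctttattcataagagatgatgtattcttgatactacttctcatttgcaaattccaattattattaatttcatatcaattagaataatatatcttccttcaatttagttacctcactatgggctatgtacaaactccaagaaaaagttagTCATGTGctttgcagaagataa
Tyrp1: gtggggagggagTCATGTGctgcctagtag
The matches began 232 and 151 bases before the start in *Dct*, 22 in *Tyr* and 47 in *Tyrp1*. The start used for *Tyrp1* is that of the RefSeq promoter window, which lies inside the gene interval given above, so the printed *Tyrp1* stretch also lies inside that interval. The windows of *Mitf*, *Kit*, *Kitl*, *Edn3* and *Ednrb* did not hold these letters. A match is a description of the sequence and not a measured binding site.

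In lab mouse dermis, *Dct*, *Tyr*, *Tyrp1* and *Mlana* were read at the wound margin and were at 0 in most or all wound center libraries. *Dct* was at 4.69 and 8.56 CPM in the 2 margin libraries, at 2.31 CPM in WT center replicate 1 and at 0 in the other 4 WT center libraries. *Tyr* was at 1.03 and 1.89 CPM in the margin and at 0 in all 5 WT center libraries. *Tyrp1* was at 0.517 and 5.27 CPM in the margin and at 0 in the center. For these 3 enzymes every margin library lay above every center library, although the 2 *Tyrp1* margin values were far apart. *Mlana* followed with 0.301 and 0.180 CPM in the margin, from 7 and 4 counts, and 0 in the center. *Pmel* was less divided, at 2.63 and 4.28 CPM in the margin and 0, 3.35, 1.29, 0.403 and 2.62 CPM in the 5 center libraries, where the groups overlapped. In bulk tissue, fewer melanocytes and less RNA per melanocyte cannot be told apart.

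**Figure D1:**
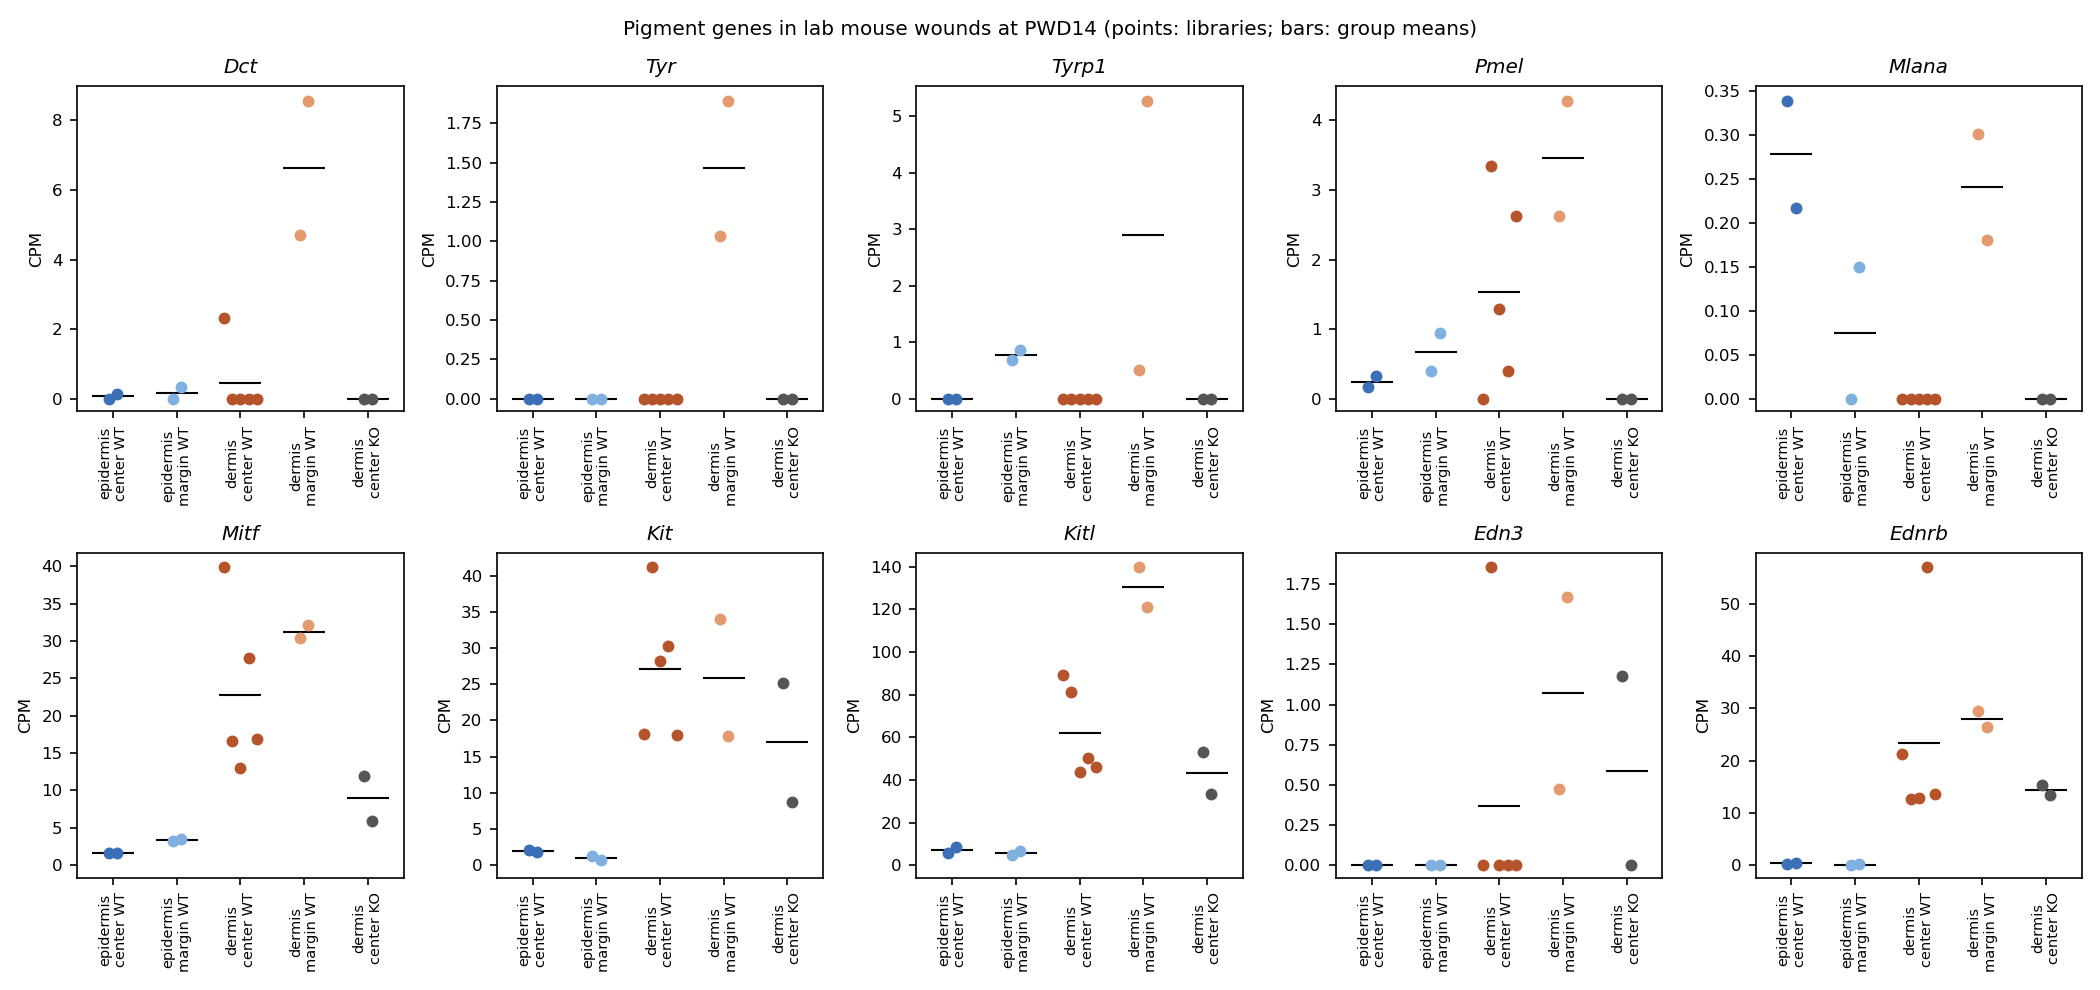
Level of each member (CPM, vertical axis, its own scale in each panel) in the 13 lab mouse libraries on PWD14, by layer, region and genotype (horizontal axis); points are libraries and bars group means. By group means, *Dct*, *Tyr* and *Tyrp1* were highest in margin dermis. For *Tyrp1*, margin dermis replicate 1 (0.517 CPM) lay below both margin epidermis libraries (0.680 and 0.855 CPM). *Mitf*, *Kit*, *Kitl* and *Ednrb* were read in all 9 dermis libraries and were below 9 CPM in all 4 epidermis libraries.

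None of these differences passed the test across all genes. WT center replicates 1 and 2 were compared with the 2 margin libraries. The quasi-likelihood test of edgeR, adjusted over all genes tested by the Benjamini-Hochberg method (FDR), was run on 14698 genes, of which 125 were called at an FDR under 0.05 (0.85%), 17 higher and 108 lower in the center. Of 9 members tested, 0 were called, 3 had an unadjusted p under 0.05 (15.8% of all genes), and DESeq2 called 1, *Tyrp1*. The margin level was at least 18.7-fold higher for *Tyrp1* (FDR 0.227) and at least 9.47-fold higher for *Tyr* (FDR 0.241). For *Tyrp1* it was at least 3.34-fold without margin replicate 2 and at least 34.1-fold without margin replicate 1. These bounds are against 3 counts in the shallower center library and hold only if a 0 stands for no more than that. *Dct* had a log2 fold change of center over margin of -2.33 ± 1.10 (SE, FDR 0.338), and of -3.71 ± 1.14 (FDR 0.0961) when all 5 WT center libraries were used. The median log2 fold change was -0.62 over the tested members and -0.03 over all genes. In CPM, both margin libraries lay above center replicates 1 and 2 for 6 of the 10 members, beside 30.1% of all genes tested.

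The receptors and ligands of the lineage were not divided by region in the same way. *Kitl*, the KIT ligand made by keratinocytes and dermal cells, was at 140 and 121 CPM in margin dermis and at 89.0 and 81.3 CPM in center replicates 1 and 2, which gave a log2 fold change of -0.53 ± 0.22 (FDR 0.272). The other 3 center libraries were at 43.5, 50.2 and 46.3 CPM, so that no center library reached the margin. These 3 are the WT libraries of the knockout comparison, a set without margin libraries. For them a difference between library sets and a difference between regions cannot be told apart. *Ednrb* was at 29.5 and 26.5 CPM in the margin and at 12.7 to 57.0 CPM in the center, with replicate 4 above the margin and the other 4 below it. *Mitf* was at 30.4 and 32.1 CPM in the margin and at 13.1 to 39.9 CPM in the center, and *Kit* at 33.9 and 17.8 CPM and at 18.0 to 41.2 CPM. For both genes the groups overlapped. *Edn3* was at 0.474 and 1.67 CPM in the margin and at 0 in the center except for replicate 2, with 1.85 CPM.

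Hair follicle genes moved with the melanosome genes in these libraries, and keratinocyte genes did so only among the WT libraries. The summed level of 11 markers of hair shaft and inner root sheath was 877 and 908 CPM in the 2 margin dermis libraries and 0 to 10.6 CPM in the 7 center libraries, KO included, and 8 of the 11 were called lower in the center (*Krt27*, *Krt73*, *Krt33a*, *Krt28*, *Krt35* and *Krt71* with the largest fitted changes). All 10 melanocyte markers fixed for this tissue, 5 of them members, were detected in margin replicate 2 and 9 of 10 in margin replicate 1, against 1 to 4 of 10 in the 7 center libraries. *Sox10*, which Schwann cells share, was the one detected in all 7, at 9.68 to 27.1 CPM. The summed level of 9 keratinocyte markers was 2228 and 4553 CPM in the margin and 9.82 to 621 CPM in the 5 WT center libraries. Of the 9 markers, 5 were called lower in the center. In the 2 KO center libraries the sum was 1008 and 35189 CPM, while the melanosome genes had no count there. The part of follicle and keratinocyte content in the margin values was not tested. The 5 genes most like the mean of the 5 melanosome members over the 13 lab mouse libraries were *Cyp2g1*, *Tgm6*, *Krt81*, *Ces1d* and *Krt33a* (Pearson's r of 0.961 to 0.955 on log2(CPM + 0.5) among 13963 genes). Each of the 5 was at 0 in 8 to 11 of these libraries, and the value describes the libraries only.

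**Figure D2:**
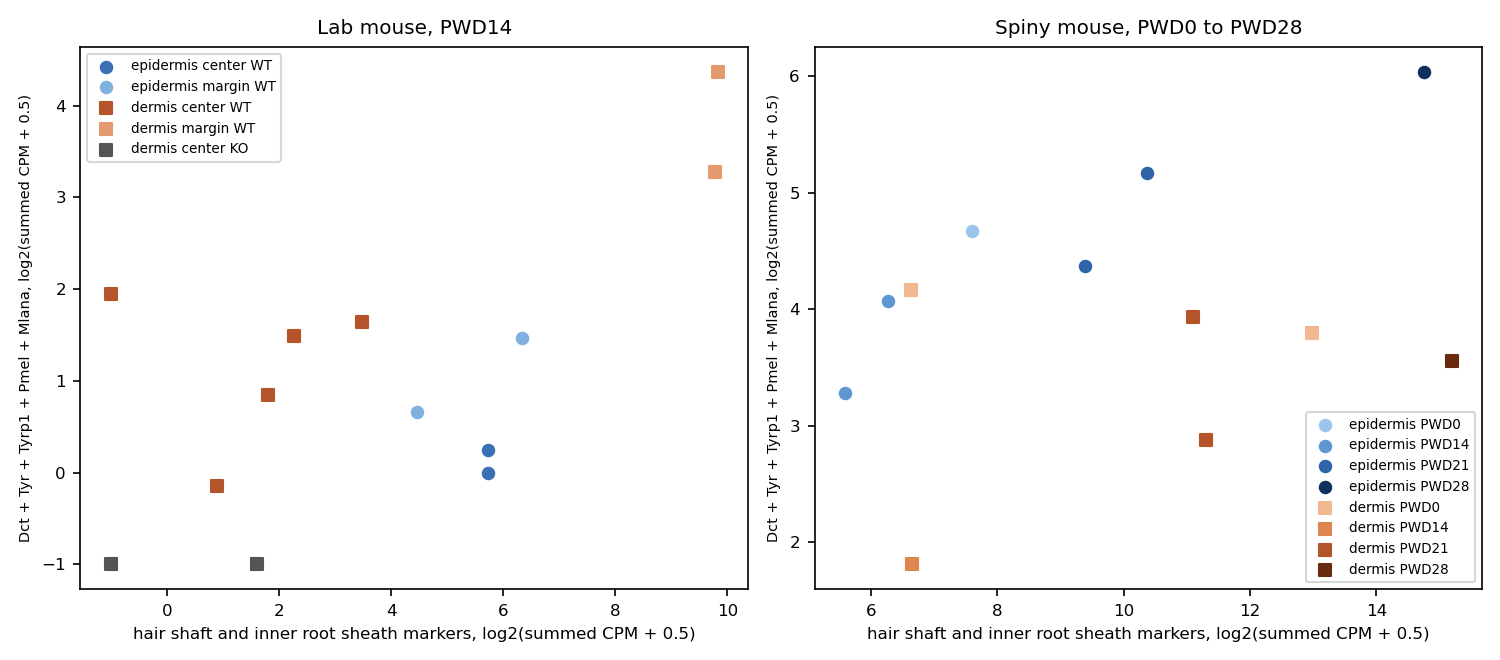
Summed level of the 5 melanosome members (vertical axis) against that of 11 hair shaft and inner root sheath markers (horizontal axis), both as log2(summed CPM + 0.5), in each lab mouse (left) and spiny mouse (right) library, with circles for epidermis and squares for dermis. The 2 lab mouse margin dermis libraries were highest on both axes, and in the spiny mouse the PWD28 epidermis was highest for melanosome members while the dermis on PWD28 was not.

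In center dermis of the K14-Cre-Twist1 mouse, none of the 5 melanosome genes had a count in either library. WT center replicates 3 to 5, the libraries they were compared with, also had no count of *Dct*, *Tyr*, *Tyrp1* or *Mlana*. *Pmel* was at 1.29, 0.403 and 2.62 CPM in these WT libraries, at least 10.2-fold above 3 counts in the shallower KO library and at least 6.01-fold without WT replicate 5, but did not pass the test (FDR 0.480, and 0.877 without KO replicate 2). *Mitf* was at 11.95 and 5.95 CPM in KO and at 13.1, 27.7 and 16.9 CPM in WT, with KO below WT throughout (log2 fold change -1.08 ± 0.62, FDR 0.510; -0.61 ± 0.59 without KO replicate 2).

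*Kit*, *Kitl*, *Edn3* and *Ednrb* overlapped between the genotypes. *Kit* was at 25.2 and 8.76 CPM in KO and at 28.2, 30.2 and 18.0 CPM in WT, and its log2 fold change of -0.57 ± 0.55 became 0.03 ± 0.43 without KO replicate 2. *Kitl* was at 53.3 and 33.6 CPM in KO and at 43.5, 50.2 and 46.3 CPM in WT, with -0.10 ± 0.33, and 0.23 ± 0.30 without that library. *Ednrb* was at 15.3 and 13.4 CPM in KO and at 12.8, 57.0 and 13.7 CPM in WT (-0.91 ± 0.73, FDR 0.614; -0.74 ± 0.83 without KO replicate 2), where WT replicate 4 stood apart, and *Edn3* had a count only in KO replicate 1, at 1.18 CPM. In this comparison 8 of 14163 genes (0.0565%) were called, and of the 5 members tested 0 were called by edgeR or DESeq2 and 0 had an unadjusted p under 0.05 with edgeR (11.5% of all genes). The median log2 fold change was -0.91 over these 5 and -0.07 over all genes. Without KO replicate 2 the members called were again 0, and 27 genes were called in all.

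In lab mouse epidermis, every melanosome member stayed below 1 CPM. *Tyr* and *Edn3* had no count in any of the 4 libraries. *Tyrp1* was at 0.680 and 0.855 CPM in the margin and at 0 in both center libraries, at least 14.1-fold lower in the center against 3 counts (FDR 0.123). *Pmel* was at 0.162 and 0.326 CPM in the center and at 0.397 and 0.948 CPM in the margin, a difference of -1.77 ± 0.84 on the log2 scale (FDR 0.258). Both genes had every center library below the margin. *Dct* was at 0 and 0.145 CPM in the center and at 0 and 0.324 CPM in the margin. *Mitf* was at 1.63 and 1.59 CPM in the center and at 3.23 and 3.48 CPM in the margin (-1.16 ± 0.44, FDR 0.197). Both *Mitf* margin values lay above both center values.

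*Kit*, *Ednrb* and *Mlana* lay the other way round in CPM. *Kit* was at 2.06 and 1.77 CPM in the center and at 1.30 and 0.670 CPM in the margin (1.03 ± 0.60, FDR 0.346). *Ednrb* was at 0.324 and 0.344 CPM in the center and at 0 and 0.162 CPM in the margin (1.46 ± 1.17, FDR 0.469). *Mlana* was at 0.339 and 0.217 CPM in the center and at 0 and 0.150 CPM in the margin (1.33 ± 1.21, FDR 0.523). None of these 3 differences passed the test. The summed level of 9 fibroblast markers was 5012 and 4150 CPM in center epidermis and 1962 and 636 CPM in margin epidermis (1 of 9 called, higher in the center). That of 8 endothelial markers was 37.5 and 27.2 CPM against 6.69 and 1.62 CPM (0 of 8 called), and the part of these cells in the *Kit* and *Ednrb* values was not tested. *Kitl* was at 5.80 and 8.77 CPM in the center and at 4.93 and 6.70 CPM in the margin, and the groups overlapped. The center was compared with the margin over 14165 genes, of which 176 (1.24%) were called. Of 7 members tested 0 were called, 2 (*Tyrp1* and *Mitf*) had an unadjusted p under 0.05 (23.5% of all genes), and DESeq2 called *Tyrp1*. With margin replicate 1 left out, *Tyrp1*, *Mitf* and *Kit* were called, a fit that rests on 1 margin library and in which 5508 genes were called. With margin replicate 2 left out, *Tyrp1* was called among 7405 genes. In CPM 6 members did not overlap between the regions, 3 in each direction, beside 59.0% of all genes tested. The median log2 fold change was 0.20 over the 7 members and -0.02 over all genes.

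Whether the regional difference itself differed between the layers was tested as an interaction over 15531 genes, of which 540 (3.48%) were called, 519 of them with a more positive center-margin difference in epidermis. Of 9 members tested 0 were called by edgeR and 0 had an unadjusted p under 0.05 (16.0% of all genes), while with DESeq2 0 were called and 1 had an unadjusted p under 0.05. *Tyr*, *Tyrp1* and *Edn3* had a group without counts, so their fitted values are not given. The largest of the others was *Ednrb*, with 2.21 ± 1.37 (FDR 0.482), beside a median of 0.31 over all genes.

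In the spiny mouse *Dct*, *Tyrp1* and *Pmel* were read in both layers on every day, *Tyr* and *Mlana* had no count in the single PWD14 dermis library, and in epidermis the lowest CPM of *Dct*, *Tyr*, *Tyrp1* and *Pmel* was in a PWD14 library. *Dct* was at 10.5 CPM on PWD0, 5.12 and 9.83 on PWD14, 16.8 and 8.11 on PWD21 and 31.8 on PWD28. *Pmel* ran alongside it, at 8.40, then 4.03 and 4.79, then 10.7 and 6.79, then 19.7 CPM. *Tyrp1* was at 4.91 CPM on PWD0, 0 and 0.383 on PWD14, 5.29 and 4.17 on PWD21 and 9.44 on PWD28. Of the 3, only *Tyrp1* was near 0 on PWD14, with 0 and 6 counts in libraries of 12902800 and 15671363 counts. *Tyr* was at 0.661, then 0.0775 and 0.830, then 1.80 and 0.914, then 3.59 CPM, and *Mlana* between 0 and 0.769 CPM throughout. *Dct*, *Tyr*, *Tyrp1* and *Pmel* were each highest in the single PWD28 library, which has no replicate.

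**Figure D3:**
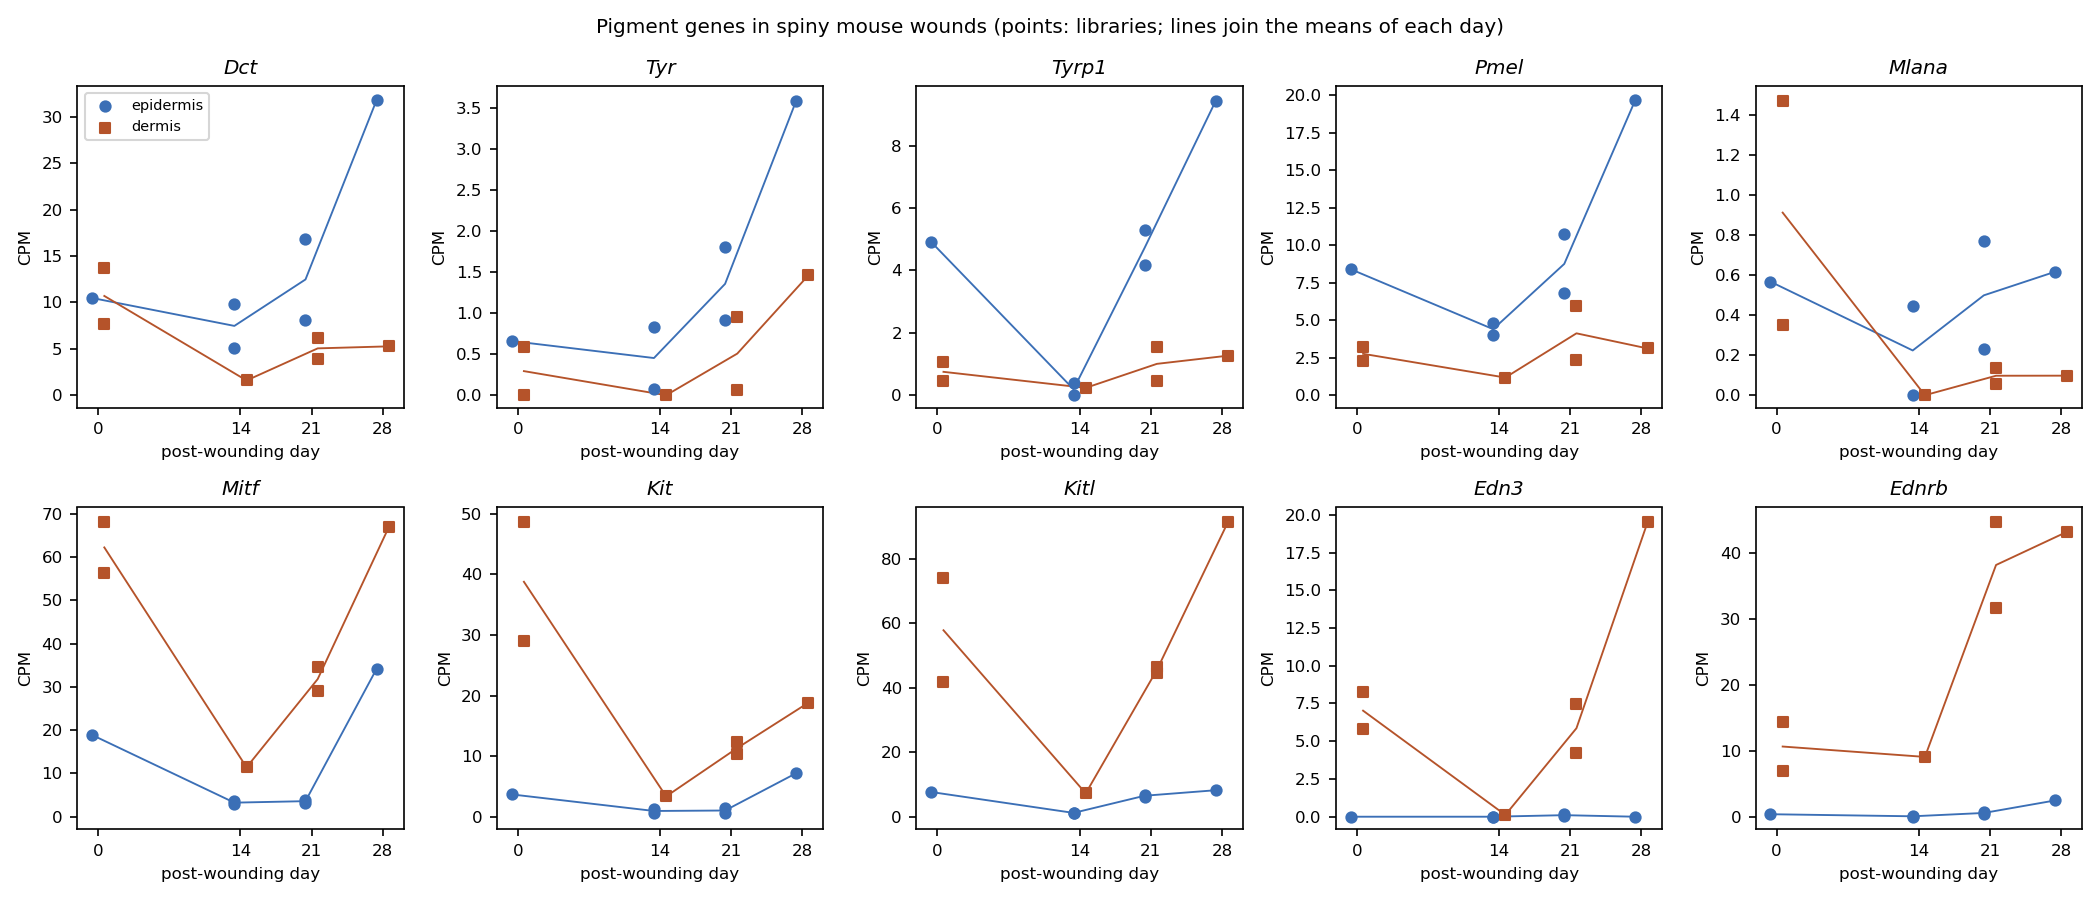
Level of each member (CPM, vertical axis, its own scale in each panel) against post-wounding day (horizontal axis) in spiny mouse epidermis (circles) and dermis (squares, shifted to the right); points are libraries and lines join the means of each day. By the means of each day, *Pmel* lay higher in epidermis on every day, *Dct* on every day but PWD0 and *Tyrp1* on every day but PWD14. *Mitf*, *Kit*, *Kitl* and *Ednrb* lay higher in dermis on every day, and *Edn3* on every day but PWD14. On PWD14 *Edn3* had 2 counts in dermis, under the 3 taken as detectable, and none in epidermis.

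*Tyrp1* and *Kitl* were the members that passed the test between PWD14 and PWD21. *Tyrp1* fell by 3.95 ± 0.74 on the log2 scale on PWD14 against PWD21 (edgeR FDR 0.00129). *Kitl* was at 1.09 and 1.28 CPM on PWD14 and at 6.21 and 6.79 CPM on PWD21 (-1.89 ± 0.41, FDR 0.00339), and was at 7.65 CPM on PWD0 and 8.21 CPM on PWD28. Of 7 members tested these 2 were called, both lower on PWD14, in a comparison where 6002 of 12889 genes were called (46.6%), 2991 of them lower on PWD14 (23.2%). *Dct* did not pass the test (-0.22 ± 0.39, FDR 0.658), nor did *Pmel* (-0.48 ± 0.34, FDR 0.272). CPM and fitted folds differed in this tissue, since in CPM 61.2% of all genes lay lower on PWD14 without overlap and the TMM factors of the fit moved the median of all genes from -0.59 to -0.04. Without these factors *Pmel* was called too (-1.02 ± 0.34, FDR 0.0248). The median over the 7 members was -0.48.

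Against the single library of unwounded skin, *Mitf* was lower as well. *Mitf* was at 18.9 CPM on PWD0, 3.57 and 2.94 on PWD14, 3.25 and 3.94 on PWD21 and 34.2 on PWD28. The 4 libraries of PWD14 and PWD21 lay far below the 2 of PWD0 and PWD28, so that *Mitf* was still low on PWD21 when *Tyrp1* and *Kitl* were not. PWD14 against PWD0 was fitted with all 6 epidermis libraries, assuming that the lone PWD0 library varies like the others, and 6992 of 14336 genes were called (48.8%), 3737 of them lower (26.1%). Of 9 members tested 3 were called, all lower on PWD14, namely *Tyrp1* (-3.80 ± 0.89, FDR 0.00468), *Mitf* (-1.83 ± 0.35, FDR 0.00167) and *Kitl* (-1.96 ± 0.49, FDR 0.00705). The median was -1.19 over the members and -0.15 over all genes. *Dct* had a fitted change of 0.25 ± 0.52 with TMM factors and of -0.47 ± 0.53 without them, so no direction is given for it. *Kit* was at 3.68 CPM on PWD0 and at 0.620 and 1.28 CPM on PWD14, and was called only without the factors (-1.91 ± 0.71, FDR 0.0422, against -1.19 ± 0.71, FDR 0.186).

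Other pigment genes moved in both directions in this layer. On PWD14 against PWD0, 3 of 13 lineage and melanosome genes tested were called, all lower, beside the 26.1% of all genes called lower, namely *Rab27a* (-2.99 ± 0.66) and *Myo5a* (-1.46 ± 0.31), which carry melanosomes along the cytoskeleton, and *Trpm1* (-2.08 ± 0.59), a melanocyte channel. Of 5 other ligand and receptor genes tested, *Pomc*, the precursor of melanocyte-stimulating hormone, was higher (3.39 ± 1.14) and *Edn2* (-2.57 ± 0.80) and the endothelin-converting enzyme *Ece1* (-3.30 ± 0.30) were lower. *Pomc* was at 3.95 and 1.15 CPM on PWD14 and at 0.378 CPM on PWD0, with the 2 PWD14 libraries far apart. Against PWD21, 3 of 12 lineage and melanosome genes were called, beside 46.6% of all genes, *Gpnmb* and *Rab38* lower and *Tfap2a* higher on PWD14. Hair shaft markers were lowest on the same day, at 47.7 and 76.6 summed CPM on PWD14 against 194 on PWD0, 1327 and 671 on PWD21 and 27538 on PWD28, and their part in the member values was not tested.

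In spiny mouse dermis, *Kit* and *Mitf* fell and *Ednrb* rose between PWD0 and PWD21. *Kit* was at 28.9 and 48.6 CPM on PWD0, 3.36 on PWD14, 10.4 and 12.3 on PWD21 and 18.8 on PWD28 (PWD21 against PWD0, -1.85 ± 0.33, FDR 0.00595). *Mitf* was at 56.3 and 68.2 CPM on PWD0, 11.4 on PWD14, 34.7 and 28.9 on PWD21 and 66.9 on PWD28 (-1.07 ± 0.27, FDR 0.0233). Both genes were lowest in the single PWD14 library, *Kit* was highest in the 2 PWD0 libraries, and *Mitf* on PWD28 lay between the 2 PWD0 libraries. *Ednrb* was at 6.88 and 14.4 CPM on PWD0, 9.07 on PWD14, 44.6 and 31.7 on PWD21 and 43.2 on PWD28 (1.76 ± 0.38, FDR 0.0119). Its 3 libraries of PWD21 and PWD28 did not overlap the 3 earlier ones.

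These were the 3 members called of 8 tested, while 3792 of 14481 genes were called (26.2%), 1742 higher and 2050 lower on PWD21. The median was -0.38 over the members and 0.03 over all genes. With PWD21 replicate 1 left out, 0 members were called and the values were -1.69 (FDR 0.0608) for *Kit*, -1.15 (FDR 0.110) for *Mitf* and 1.55 (FDR 0.0845) for *Ednrb*. With PWD21 replicate 2 left out, *Mitf* also lost its call (-0.96, FDR 0.179). Among other pigment genes, the second endothelin receptor *Ednra* rose with *Ednrb* (3.86 ± 0.44, FDR 0.000793) and was 1 of 5 ligand and receptor genes called, and of 13 lineage and melanosome genes *Gpnmb* rose and *Rab38* and *Tfap2a* fell, beside the 26.2% called over all genes.

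Mast cells, which carry KIT and MITF, were followed with 10 markers. Their summed level in dermis was 6121 and 5675 CPM on PWD0, 102 on PWD14, 680 and 525 on PWD21 and 1494 on PWD28, and 10 of 10 were called lower on PWD21 than on PWD0, among them *Fcer1a*, *Tpsb2*, *Cpa3*, *Cma1*, *Mcpt4* and *Mrgprb1*. All 10 were detected in all 6 dermis libraries. The order of days was the same for *Kit* and for the mast cell sum, and the part of mast cells in the *Kit* and *Mitf* values was not tested. For *Ednrb*, endothelial markers were at 149 and 269 summed CPM on PWD0 and at 411 and 411 on PWD21 (3 of 8 called higher), fibroblast markers at 99507 and 67085 and at 118595 and 150896 (3 of 9 called higher), and their part was not tested either. Keratinocyte markers fell in the same libraries, from 12087 and 8444 to 748 and 1333 summed CPM (8 of 9 called lower), and their part in these values was not tested. In lab mouse dermis the 10 mast cell markers summed to 369 to 384 CPM at the margin. They summed to 45.7 to 187 CPM in the 5 WT center libraries. Of 9 tested there between regions 0 were called, and *Kit* and *Mitf* overlapped between these regions.

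**Figure D4:**
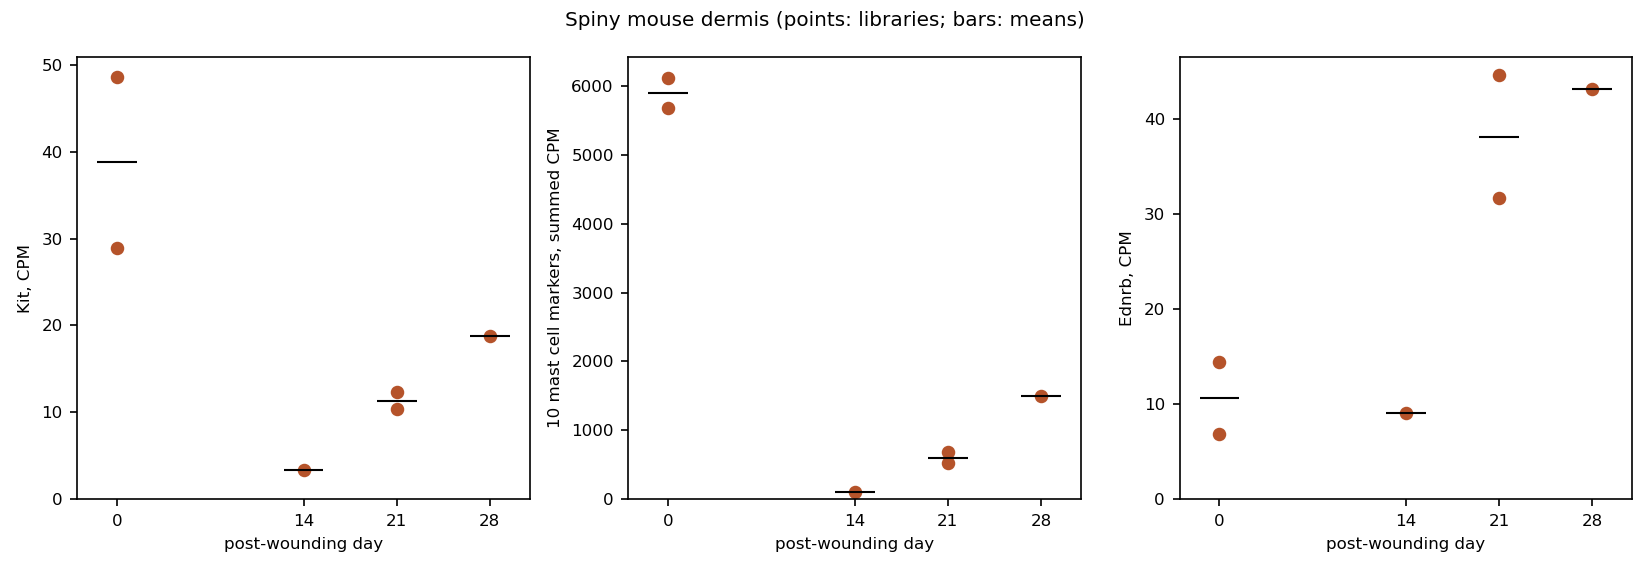
Spiny mouse dermis by post-wounding day (horizontal axis), with points for libraries and bars for means. *Kit* (left, CPM) and the sum of 10 mast cell markers (middle, CPM) were highest on PWD0 and lowest on PWD14, and *Ednrb* (right, CPM) was above 31 CPM from PWD21 on and below 15 CPM before.

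The ligand genes also dipped in dermis on PWD14. *Kitl* was at 41.6 and 73.9 CPM on PWD0, 7.24 on PWD14, 46.4 and 44.6 on PWD21 and 91.3 on PWD28. *Edn3* was at 5.82 and 8.23 CPM on PWD0, 0.118 on PWD14 from 2 counts, 4.24 and 7.48 on PWD21 and 19.5 on PWD28. Both were lowest in the single PWD14 library, which was not tested, and for both the PWD0 and PWD21 groups overlapped (-0.42 ± 0.30, FDR 0.321, for *Kitl* and -0.34 ± 0.46, FDR 0.610, for *Edn3*). Among the melanosome genes of dermis, *Dct* was at 13.8 and 7.64 CPM on PWD0, 1.59 on PWD14, 6.16 and 3.94 on PWD21 and 5.27 on PWD28 (PWD21 against PWD0, -1.23 ± 0.49, FDR 0.0954). The fitted change was 0.46 ± 0.59 (FDR 0.585) for *Pmel* and 0.28 ± 0.95 (FDR 0.850) for *Tyrp1*, on the other side of 0 from *Dct* and not called. *Pmel* was between 1.18 and 5.93 CPM, *Tyrp1* between 0.235 and 1.55 CPM, *Tyr* between 0 and 1.46 CPM and *Mlana* between 0 and 1.47 CPM over the 6 libraries. The 5 melanosome members summed to 17.5 and 13.4 CPM on PWD0 and to 11.2 CPM on PWD28, although hair shaft markers were at 98.9 and 8055 CPM and at 37438 CPM.

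In the spiny mouse on PWD21, members differed in the layer in which they were higher. Both layers had 2 libraries and the same read type. *Dct*, *Tyrp1* and *Pmel* were higher in epidermis and *Mitf*, *Kit*, *Kitl*, *Edn3* and *Ednrb* higher in dermis. *Tyrp1* was at 5.29 and 4.17 CPM in epidermis and at 1.55 and 0.460 CPM in dermis (2.46 ± 0.54, FDR 0.00543). *Dct* was at 16.8 and 8.11 CPM against 6.16 and 3.94 CPM (1.47 ± 0.43, FDR 0.0191), and *Pmel* at 10.7 and 6.79 CPM against 5.93 and 2.33 CPM (1.26 ± 0.47, FDR 0.0489). The groups did not overlap in CPM for these 3 genes, as for 36.6% of all genes tested in this direction, but the calls of *Dct* and *Pmel* were lost when epidermis replicate 1 or dermis replicate 2 was left out, with values down to 0.77 and 0.74. *Tyr* was at 1.80 and 0.914 CPM against 0.958 and 0.0576 CPM and was not called (1.82 ± 0.89, FDR 0.111).

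The dermal members differed by more. *Ednrb* was at 0.739 and 0.400 CPM in epidermis and at 44.6 and 31.7 CPM in dermis (-5.83 ± 0.38, FDR 1.66e-05), and *Edn3* at 0.148 and 0.0571 CPM against 4.24 and 7.48 CPM (-5.50 ± 0.62, FDR 0.000183). *Kit* (-3.23 ± 0.45), *Mitf* (-3.03 ± 0.25) and *Kitl* (-2.69 ± 0.22) had smaller differences. These 5 calls held in all 10 alternative fits. Of 9 members tested 8 were called, 3 higher and 5 lower in epidermis, beside 9409 of 14966 genes (62.9%), 4398 higher (29.4%) and 5011 lower (33.5%), so a call as such was common. The median was -2.69 over the members and -0.06 over all genes.

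**Figure D5:**
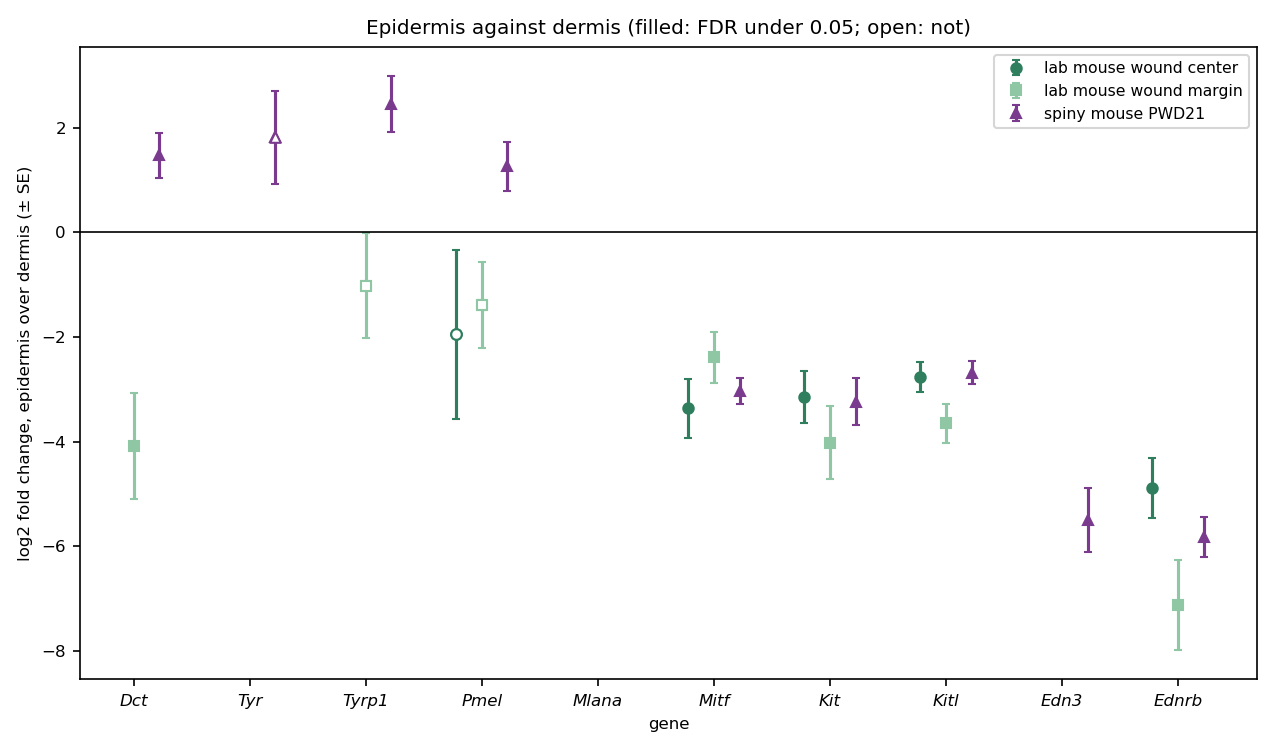
Log2 fold change of epidermis over dermis (vertical axis, error bars ± SE) for each member (horizontal axis) in lab mouse wound center (circles), lab mouse wound margin (squares) and the spiny mouse on PWD21 (triangles); filled marks had an FDR under 0.05, and genes not tested or without counts in one group are not drawn. *Mitf*, *Kit*, *Kitl* and *Ednrb* lay below 0 in all 3 comparisons, and *Dct*, *Tyrp1* and *Pmel* lay above 0 only in the spiny mouse. *Dct* and *Tyrp1* were not tested in the lab mouse wound center. *Tyrp1* was not called at the lab mouse margin, and *Pmel* was not called in either lab mouse region. The paper describes manual separation of the layers in both species, but a trypsin-EDTA step before it only for the spiny mouse.

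In the lab mouse, no member was called higher in epidermis. At the wound margin *Dct* was at 0 and 0.324 CPM in epidermis and at 4.69 and 8.56 CPM in dermis (-4.08 ± 1.01, FDR 0.00704), but the call was lost without dermis margin replicate 2 (FDR 0.0690). *Tyr* was at least 17.2-fold and *Edn3* at least 12.6-fold higher in dermis than 3 counts in the shallower epidermis library (FDR 0.0252 and 0.0378), and the bound of *Edn3* was 5.57-fold without dermis margin replicate 2 and 19.6-fold without replicate 1. Both calls were lost in every fit without 1 library in which the gene was tested, all 4 for *Tyr* and 3 for *Edn3*. *Ednrb* (-7.13 ± 0.86), *Kit* (-4.02 ± 0.70), *Kitl* (-3.65 ± 0.37) and *Mitf* (-2.39 ± 0.49) kept theirs in all 10 alternative fits. Of 9 members tested 7 were called, all lower in epidermis, beside 7141 of 14964 genes (47.7%), 4015 of them lower (26.8%), with medians of -4.02 and -0.16.

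In the wound center, *Ednrb* (-4.89 ± 0.57), *Mitf* (-3.36 ± 0.56), *Kit* (-3.15 ± 0.49) and *Kitl* (-2.77 ± 0.28) were the 4 of 5 members called, all lower in epidermis, with an FDR of 0.00109 to 0.00556. There 8038 of 14329 genes were called (56.1%), 3835 of them lower (26.8%), and the medians were -3.15 over the members and 0.05 over all genes. *Pmel* was not called (-1.95 ± 1.61, FDR 0.343). Without TMM factors, the median of all genes moved to -0.73 in the center and to -0.98 at the margin, and the 4 member calls of the center and all 7 of the margin were kept.

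Other lineage genes were divided between layers too. On PWD21 in the spiny mouse 11 of 13 were called, beside 62.9% of all genes, with *Rab38* (4.09 ± 0.20), *Mreg* (4.07 ± 0.47), *Slc45a2* (2.59 ± 0.71) and *Trpm1* (2.48 ± 0.35) higher in epidermis and *Sox10* (-4.46 ± 0.67) and *Rab32* (-3.73 ± 0.31) higher in dermis. *Rab38*, a GTPase of melanosome formation, and *Tfap2a* and *Mreg* were also called higher in epidermis at both regions of the lab mouse wound, where *Rab38* was at 155 to 202 CPM in epidermis and 2.52 to 51.4 CPM in dermis. These levels stood beside melanosome enzymes at under 1 CPM in the same epidermis libraries. Keratinocyte markers were called higher in the same layer, 9 of 9 in the center and 7 of 9 at the margin. The part of keratinocytes in the *Rab38*, *Tfap2a* and *Mreg* values was not tested. *Slc45a2*, a melanosome transporter, was lower in lab mouse margin epidermis (-3.91 ± 1.18) and at 0 in all 7 center dermis libraries. At the lab margin 10 of 13 lineage genes were called (4 higher, 6 lower in epidermis) and in the center 8 of 10 (4 and 4), beside 47.7% and 56.1% of all genes.

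Per kilobase of exon, which allows genes to be ranked within a library, *Kitl* led in lab mouse dermis with a median of 9.43 CPM per kb, followed by *Kit* (4.79), *Ednrb* (3.60) and *Mitf* (3.17), while the median was 0.607 for *Pmel* and 0 for the other 5. In spiny mouse dermis over all days *Mitf* (8.55), *Kitl* (8.05) and *Ednrb* (5.40) led, while in its wound libraries alone the order was *Ednrb* (8.78), *Kitl* (8.05) and *Mitf* (5.98). In spiny mouse epidermis *Dct* (4.61), *Pmel* (3.57) and *Tyrp1* (1.67) led, with *Kitl* at 1.15, *Mitf* at 0.705 and *Kit* at 0.262. The lengths are of lab mouse exons, and how well spiny mouse reads aligned may differ between genes. Over the 12 spiny mouse libraries, the genes most like the mean of the 5 melanosome members were *Ptma*, *Epha4*, *Mcoln1*, *Cbwd1* and *Abcg1* (r of 0.936 to 0.909 among 13758 genes), and none of the 5 most alike in the lab mouse was among them.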

How the data were processed

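RNA-seq was done on 25 libraries. Per the labels, alignment used STAR 2.4.1d on mm10 and counting used HTSeq 0.6.0, and the deposited values were raw counts per gene symbol. Summary lines of the counter were left out, and CPM is a count scaled by the sum over all gene rows. Groups were taken from the labels. The members and the gene lists were chosen with earlier results of these data known.

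Each of 10 comparisons was fitted on all genes passing filterByExpr with TMM factors and edgeR 4.0.16 (glmQLFit and glmQLFTest, prior count 0.125, R 4.3.3), and a gene was called at a Benjamini-Hochberg FDR under 0.05. The bias-adjusted quasi-likelihood estimate of edgeR 4 was made the main one after both it and the estimate of edgeR 3, the default of this version, had been run, because an earlier processing of these data used it. The choice was therefore not blind to the number of calls. WT center dermis libraries were divided between comparisons by library name, as in the study. The alternatives were the edgeR 3 estimate, DESeq2 1.42.0, RLE or no normalization factors, no low-count filter, 1 fit per species, all 5 WT center dermis libraries and each library left out. On simulated data with 200 genes changed by 3 on the log2 scale, 54.0% to 97.5% were recovered across the comparisons. Of the genes called on these data, 1.72% (lab dermis by region) to 10.6% (lab epidermis by region) had not been changed. Text names all members, list genes that were called (at most 6 per list) and the 5 genes most like the melanosome members. *Asip* and *Krt85* were not used here. The result of 1 marker list is not reported here.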

Additional observations from a re-analysis of the deposited data

Results flagged for a closer look

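Outlying libraries were looked for in the 1 group of 4 to 10 libraries, the 5 WT center dermis libraries, by the gap of the highest or lowest library to the next over the whole range, against a critical value of 0.71. Chance marks about 1 in 20 groups, and 10 members were examined. *Ednrb* was at 57.0 CPM in replicate 4, with the next library at 21.3 CPM and the lowest at 12.7 CPM, a ratio of 0.806. *Dct* was at 2.31 CPM in replicate 1 and *Edn3* at 1.85 CPM in replicate 2, each with the other 4 libraries at 0. With 4 libraries at 0 the ratio takes its highest value whatever the level of the remaining library. The rate of about 1 in 20 therefore does not apply to these genes, and their marks say nothing further.

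In CPM, *Mlana* lay higher in the center in lab mouse epidermis and higher in the margin in lab mouse dermis, at levels near the limit of detection. Its log2 fold change in epidermis was 1.33 and did not pass the test (FDR 0.523), with both center libraries above the margin, while in dermis it was read at 0.301 and 0.180 CPM in the margin, from 7 and 4 counts, and at 0 in the center, and was not tested. The difference between the layers was not tested.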

How the results depend on the processing

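Of 27 member calls, 19 held under every alternative run and 0 reversed. The edgeR 3 estimate, added as an alternative after seeing the data, ended the calls of *Dct* at the lab margin (FDR 0.0800) and of *Pmel* between spiny layers, and called 0 genes between regions of lab epidermis, 54 between regions of lab dermis and 2 between genotypes. DESeq2 called 1511, 738 and 787 genes in the same 3 comparisons, 1125 in the interaction, and 1 member in each regional comparison. One fit per species called 397 genes in lab epidermis, 444 between genotypes, 116 in the interaction and 4 members between layers at the lab margin. All 5 WT center libraries gave 323 genes between regions of dermis and 190 between genotypes.

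With 1 library left out, members called were 0 to 3 in lab epidermis, 0 to 0 in lab dermis, between genotypes and in the interaction, 2 to 3 for spiny epidermis PWD14 against PWD21, 3 to 3 against PWD0, 0 to 4 in spiny dermis, 4 to 6 and 4 to 5 between layers in lab center and margin and 6 to 10 between spiny layers. Genes called were 70 to 7405, 19 to 241, 1 to 3353, 167 to 1343, 3470 to 6635, 6197 to 7561, 1311 to 5118, 4899 to 10993, 4508 to 7623 and 7610 to 10110 in the same order. The causes were not tested.

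Without normalization factors the fold changes of spiny epidermis reversed to -0.13 for *Mitf* and -0.22 for *Kit* (PWD14 against PWD21) and to -0.47 for *Dct* and -0.43 for *Tyr* (against PWD0), none of them called. Over the fits with 1 library left out, further uncalled values changed sign. In lab epidermis *Kitl* ranged from -0.13 to 0.51. In lab dermis by region *Pmel* ranged from -9.23 to 0.016, *Mitf* from -0.86 to 0.48, *Kit* from -0.40 to 0.84 and *Edn3* from -7.54 to 0.92. Between genotypes *Kit* ranged from -1.58 to 0.027, *Kitl* from -0.52 to 0.23 and *Ednrb* from -1.25 to 0.097. In spiny epidermis *Dct* ranged from -0.74 to 0.45 and *Kit* from -0.29 to 1.31 against PWD21, and *Dct* from -0.30 to 0.57, *Tyr* from -2.28 to 0.98 and *Mlana* from -0.49 to 0.31 against PWD0. In spiny dermis *Tyrp1* ranged from -0.38 to 1.14, *Pmel* from -0.29 to 0.98 and *Edn3* from -0.84 to 0.051. Between lab layers *Pmel* ranged from -2.98 to 6.68 (center) and *Tyrp1* from -1.85 to 1.37 (margin). In the interaction *Dct* ranged from -4.11 to 8.69 and *Pmel* from -1.77 to 7.83. The largest of these values come from fits in which a group had no counts and are not folds.

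No paired analysis was possible because the labels give each library its own number and no number is shared between groups. Groups hold 1 to 5 libraries, and members under 1 CPM rest on few counts, so a difference that missed the threshold is not shown to be absent.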
